A study of Mus musculus with 6 samples.

Results

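This report describes 32 genes of the antioxidant system in the left ventricle of mice fed ethanol: the transcription factor NRF2 (gene Nfe2l2) and its inhibitor Keap1, with the enzymes and a cystine transporter that make or recycle glutathione, conjugate electrophiles to it, or remove superoxide and peroxides. The members were taken by gene symbol from a list, and all 32 were found among the 55487 genes in the files. The hearts came from male C57BL/6 mice, 8 weeks old, in a study of alcoholic cardiomyopathy, a disease of the heart muscle caused by drinking. ET mice were fed 5% ethanol in the diet over 10 days, followed by 1 gavage of ethanol, while CONT mice had isocaloric food and a gavage of maltose-dextrin. The left ventricle was taken 9 h after the gavage, so the ET group combines a feeding period with a recent binge, and the mice are labelled wild type. Each group has 3 RNA sequencing libraries, and since the labels do not name a separate mouse for each, p-values speak only of the spread among these libraries, which may be technical.

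NRF2 is held at a low level in unstressed cells because KEAP1, an adaptor of a ubiquitin ligase, marks it for destruction. Electrophiles and oxidants modify cysteines of KEAP1, NRF2 then accumulates in the nucleus with a small MAF partner, and the pair binds antioxidant response elements near genes for glutathione synthesis, glutathione transferases and the thioredoxin system. Much of this control acts on the NRF2 protein, so that the level of Nfe2l2 mRNA alone says little about the activity of the factor. In the heart, whose mitochondria are abundant, superoxide dismutases, glutathione peroxidases and peroxiredoxins remove the superoxide and peroxides that respiration gives off.

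The libraries held 28838386 to 37762233 expected counts, and 15727 genes had enough counts to be tested, among them 31 of the 32 members. The labelled tissue carried its markers: all 10 cardiomyocyte markers had counts in every library, with summed levels of 38200 to 64400 counts per 1000000 library counts (CPM) in ET and 63900 to 71000 CPM in CONT. Some libraries stood apart. The summed level of 10 atrial markers was 9380, 445 and 169 CPM in ET replicates 1 to 3, against 206, 166 and 1830 CPM in CONT replicates 1 to 3, and that of 9 fibroblast markers was 2120, 786 and 611 CPM in ET, against 818, 687 and 690 CPM in CONT. Of 14 hepatocyte markers, 9 had counts in every library, while Cps1, Fgb, Fgg, Serpina1a and Serpina3k were at 0 in at least 1, and Alb, which encodes albumin, was at 2.16, 0.235 and 46.7 CPM in ET, against 0.0273, 1.5 and 0.118 CPM in CONT. Grouping by gene lengths in the files, with the number of sets fixed at 2 beforehand, gave sets that cross the groups. Set 1 held ET replicate 1 with CONT replicates 1 and 2. Set 2 held ET replicates 2 and 3 with CONT replicate 3. A comparison of ET with CONT within a set therefore rests on 1 library in ET or in CONT. The derived length of Myh6 was 1309 to 1365 bases in set 1 and 2061 to 2370 bases in set 2. In edgeR's quasi-likelihood test 0 of 15727 genes passed an adjusted p of 0.05, with 1360 at an unadjusted p under 0.05, while DESeq2 called 185 and limma-voom 0.

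No member passed the test. Of the 31 tested members, 18 had a positive (background 51.9%) and 13 a negative log2 fold change of ET over CONT, with a median of 0.05 beside 0.01 over all genes tested. In edgeR 0 of the 31 passed (background 0%), DESeq2 called 1 of them, Osgin1 (background 1.18%, with 0.668% higher and 0.509% lower), and limma-voom called 0. At an unadjusted p under 0.05 (background 8.65%) there were 5 members with higher and 0 with lower values in ET, where 4.19% and 4.46% of all genes stood. In 7 members the CPM values of ET and CONT were fully apart. In 6 of these, Osgin1, Gclc, Gclm, Gsta3, Gstm1 and Gstm2, every ET library lay above every CONT library, as in 6.89% of all genes, and in 1, Prdx2, every ET library lay below, as in 8.36%. With counts scaled by library totals only, these 6 genes and Gss were higher in every ET library (background 10.1%), and Prdx2 and Prdx5 lower (background 4.72%). In TPM, transcripts per 1000000, which also divides by gene length, the 6 genes, Gss and Srxn1 were higher (background 12.3%) and 0 members lower (background 3.27%). In bulk tissue, a change in the number of cells of a type and a change in the RNA per cell cannot be told apart.

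**Figure D1:**
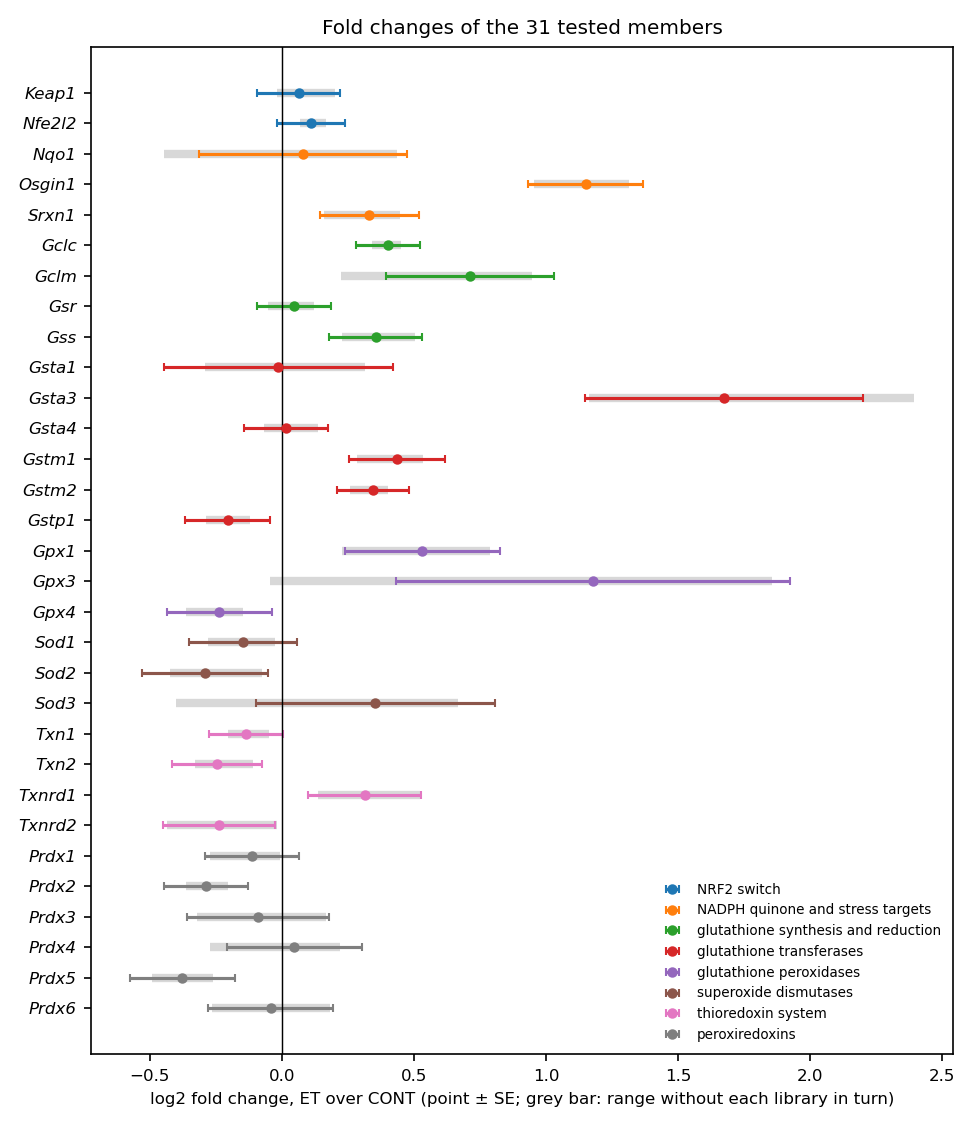
Log2 fold changes of ET over CONT for the 31 tested members, grouped by role. Points are edgeR estimates with SE, and grey bars span the values found when each of the 6 libraries was left out in turn. The points of glutathione synthesis lie at or above 0 and those of 5 of 6 peroxiredoxins below it (Prdx1, Prdx3 and Prdx6 were positive on log2(TPM + 1)). The bars of Gpx3, Sod3, Nqo1, Keap1, Gsr, Gsta1, Gsta4, Prdx3, Prdx4 and Prdx6 cross 0.

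The regulators themselves did not separate the groups. Nfe2l2 was at 55.4, 50.1 and 49.0 CPM in ET replicates 1 to 3, against 44.6, 47.9 and 50.5 CPM in CONT replicates 1 to 3. CONT replicate 3 lay above ET replicates 2 and 3, so the groups overlapped, and the log2 fold change was 0.11 ± 0.13 (SE, adjusted p = 0.782). Keap1 was at 41.8, 54.6 and 56.2 CPM in ET, against 45.9, 47.9 and 52.2 CPM in CONT. ET replicate 1 was the lowest and ET replicate 3 the highest library, with a log2 fold change of 0.06 ± 0.16 (adjusted p = 0.907). Nfe2l2 had no exon base in common with another gene, whereas 10.9% of the exon bases of Keap1 overlap a gene that runs the other way. In GRCm38 (mm10) coordinates Nfe2l2 (ENSMUSG00000015839) spans 75675513 to 75704641 on chromosome 2, minus strand, and Keap1 (ENSMUSG00000003308) spans 21229730 to 21239361 on chromosome 9, minus strand. Both are protein-coding, as are the other members, and each value is for the gene as a whole.

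The upstream sequences of members were searched for the core of the antioxidant response element, TGACNNNGC on either strand. Windows of 250 bases before and 50 bases after the start site were found for 27 of the 32 members, and not for Gclc, Gsr, Gsta4, Prdx6 and Sod3. The core occurred in 7 of the 27 (25.9%), namely Nfe2l2, Gclm, Gsta3, Txnrd1, Srxn1, Sod1 and Prdx1, and in 14.0% of all genes with a window. The AP-1 element TGANTCA, which can share bases with the core, occurred in Gstp1, Osgin1, Prdx1 and Srxn1, or 14.8% of the members and 8.97% of all genes, and it shared bases with the core in Prdx1 alone among the members. The core lay 29 bases after the start in Srxn1 and upstream of it in the other 6. Shown here are 4 of these upstream stretches of 250 bases (RefSeq, GRCm38.p6), those of the members with the lowest p that hold the core before the start, written 5′ to 3′ along the gene with the core in capitals. They let the letters of the element and its place be compared between a transferase, a subunit of glutathione synthesis, a reductase and the factor itself.
Gsta3, chr1:21240335-21240584, plus strand: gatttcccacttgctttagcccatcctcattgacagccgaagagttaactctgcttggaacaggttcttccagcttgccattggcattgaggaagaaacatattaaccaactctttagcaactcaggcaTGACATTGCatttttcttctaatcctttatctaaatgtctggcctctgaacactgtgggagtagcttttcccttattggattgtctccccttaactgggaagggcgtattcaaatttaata
Gclm, chr3:122245307-122245556, plus strand: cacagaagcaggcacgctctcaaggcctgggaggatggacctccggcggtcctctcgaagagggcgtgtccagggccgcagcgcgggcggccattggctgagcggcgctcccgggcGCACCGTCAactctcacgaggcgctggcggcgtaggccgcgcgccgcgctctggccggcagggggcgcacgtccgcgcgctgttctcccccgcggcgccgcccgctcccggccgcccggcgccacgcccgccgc
Txnrd1, chr10:82858956-82859205, plus strand: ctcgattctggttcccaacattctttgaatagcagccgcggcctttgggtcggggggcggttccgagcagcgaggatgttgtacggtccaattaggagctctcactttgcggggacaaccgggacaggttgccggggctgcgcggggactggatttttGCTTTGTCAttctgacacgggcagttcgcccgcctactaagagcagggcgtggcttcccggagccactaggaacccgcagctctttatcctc
Nfe2l2, chr2:75704664-75704913, minus strand: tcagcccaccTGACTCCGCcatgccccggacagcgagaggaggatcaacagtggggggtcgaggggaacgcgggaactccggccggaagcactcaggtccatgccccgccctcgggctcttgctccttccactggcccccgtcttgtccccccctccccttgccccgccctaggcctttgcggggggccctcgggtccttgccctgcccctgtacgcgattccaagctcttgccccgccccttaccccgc
The first base of the core is 121 bases before the start in Gsta3, 134 in Gclm, 92 in Txnrd1 and 240 in Nfe2l2. In Gclm and Txnrd1 the core reads on the opposite strand, as GCACCGTCA and GCTTTGTCA. The window of Txnrd1 belongs to 1 of 3 starts in the RefSeq table. A match is a description of letters, and binding was not measured. Sequence outside the windows was not searched.

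Among the stress-induced targets Osgin1 had the lowest p of all members. Its product restrains growth and responds to oxidative stress. Osgin1 was at 7.31, 9.02 and 11.7 CPM in ET replicates 1 to 3, against 3.64, 4.34 and 4.65 CPM in CONT replicates 1 to 3. The lowest ET library was above the highest CONT library. The means were 9.35 ± 2.22 CPM in ET and 4.21 ± 0.516 CPM in CONT (SD, n = 3 each), and the log2 fold change was 1.15 ± 0.22 with an adjusted p of 0.427 in edgeR (unadjusted p = 0.00113). DESeq2 gave an adjusted p of 0.00336, and the alternatives together gave 0.00336 to 0.999. The fold change kept its sign without each library (0.95 to 1.31), and ET over CONT within the library sets gave log2 ratios of 0.87 in set 1 and 1.16 in set 2. Osgin1 (ENSMUSG00000074063) lies on chromosome 8 at 119434124 to 119446256, plus strand, and its window holds no core of the response element.

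Nqo1, the quinone reductase most often used as a readout of NRF2, did not separate the groups. It was at 15.5, 30.3 and 53.2 CPM in ET, against 30.8, 30.4 and 32.2 CPM in CONT. All CONT libraries lay between ET replicate 1, the lowest, and ET replicate 3, the highest. The means were 33.0 ± 19.0 CPM in ET and 31.1 ± 0.951 CPM in CONT, with a log2 fold change of 0.08 ± 0.39 (adjusted p = 0.957) that was -0.45 without ET replicate 3 and 0.44 without ET replicate 1. Srxn1 encodes sulfiredoxin, which repairs overoxidised peroxiredoxins. It was at 17.5, 22.5 and 15.3 CPM in ET, against 14.9, 16.6 and 12.4 CPM in CONT (log2 fold change 0.33 ± 0.19, adjusted p = 0.611). CONT replicate 2 lay above ET replicate 3, so the CPM values overlapped, while in TPM every ET library (6.17 to 9.14) lay above every CONT library (5.07 to 5.72).

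All 4 tested genes of glutathione synthesis and reduction had positive log2 fold changes (background 51.9%), of 0.05 to 0.71. That of Gsr turned negative in some alternatives. It was -0.002 with upper-quartile factors, -0.0042 with the library set term and -0.0508 to 0.12 without each library. Glutamate-cysteine ligase, the limiting step, is built of a catalytic subunit, Gclc, and a modifier subunit, Gclm. Gclc was at 12.2, 12.4 and 13.8 CPM in ET replicates 1 to 3, against 9.99, 9.44 and 9.62 CPM in CONT replicates 1 to 3. The groups were apart and each was narrow, with means of 12.8 ± 0.848 CPM in ET and 9.68 ± 0.282 CPM in CONT and a log2 fold change of 0.40 ± 0.12 (unadjusted p = 0.0129, adjusted p = 0.515). It was between 0.34 and 0.45 without each library. Gclm was at 17.6, 19.8 and 41.2 CPM in ET, against 16.0, 15.5 and 16.3 CPM in CONT. The groups did not overlap, but ET replicate 3 alone was far above the rest, and the log2 fold change of 0.71 ± 0.32 (unadjusted p = 0.0591, adjusted p = 0.574) was 0.23 without it. Gclc (ENSMUSG00000032350) lies on chromosome 9 at 77754535 to 77794485, plus strand, and Gclm (ENSMUSG00000028124) on chromosome 3 at 122245557 to 122270732, plus strand, where 4.71% of its exon bases overlap a gene on the opposite strand.

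Gss, the synthetase that completes glutathione, was at 9.47, 12.1 and 13.7 CPM in ET, against 8.29, 9.21 and 10.1 CPM in CONT. ET replicate 1 lay below CONT replicate 3, so the groups overlapped (log2 fold change 0.36 ± 0.18, adjusted p = 0.585), whereas in TPM and by library totals they did not. Of its exon bases 15.4% overlap genes on the opposite strand. Gsr, the reductase that regenerates glutathione, was at 12.9 to 15.6 CPM in ET and 12.1 to 14.5 CPM in CONT (means 13.8 ± 1.51 CPM in ET and 13.4 ± 1.2 CPM in CONT, log2 fold change 0.05 ± 0.14, adjusted p = 0.928). Slc7a11, the cystine importer, had 4.04, 3.03 and 0 expected counts in ET replicates 1 to 3, against 2.02, 1.01 and 7.07 in CONT replicates 1 to 3. It was the 1 member with too few counts to be tested, and a difference was not detectable at this depth.

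The glutathione transferases attach glutathione to electrophiles, and 3 of the 6 members were higher in every ET library (background 6.89%). Gstm1 and Gstm2 are neighbouring genes of the mu class. Gstm1 was at 224, 235 and 305 CPM in ET replicates 1 to 3, against 181, 201 and 183 CPM in CONT replicates 1 to 3. The means were 255 ± 43.4 CPM in ET and 188 ± 10.9 CPM in CONT, with a log2 fold change of 0.44 ± 0.18 (unadjusted p = 0.0470, adjusted p = 0.572). Gstm2 was at 72.1, 72.6 and 85.6 CPM in ET, against 60.2, 60.3 and 60.8 CPM in CONT. Its CONT libraries were nearly equal, and its log2 fold change was 0.35 ± 0.13 (unadjusted p = 0.0370, adjusted p = 0.559). The fold change of Gstm1 was 0.29 without ET replicate 3, its highest library, and up to 0.54 without the others, and that of Gstm2 was 0.26 to 0.40 without each library. Of the stretches of 75 bases, the read length, in their transcripts, 11.7% in Gstm1 and 1.85% in Gstm2 also occur in another gene, and the estimated counts depend there on how reads were divided between copies. Gstm1 (ENSMUSG00000058135) lies on chromosome 3 at 108012255 to 108017973 and Gstm2 (ENSMUSG00000040562) at 107981702 to 107986453, both on the minus strand.

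Gsta3, of the alpha class, had the largest log2 fold change among the tested members, and it also varied widely within the groups. It was at 19.1, 17.5 and 41.6 CPM in ET replicates 1 to 3, against 5.20, 4.79 and 14.4 CPM in CONT replicates 1 to 3. ET replicate 3 and CONT replicate 3 were each well above the other libraries of their group, and the groups still did not overlap. The log2 fold change was 1.67 ± 0.53 (unadjusted p = 0.0151, adjusted p = 0.515), 1.16 without ET replicate 3 and 2.39 without CONT replicate 3, and the log2 ratio was 1.94 in set 1 and 1.03 in set 2. Gsta3 is also a gene of the liver, and the summed hepatocyte markers were at 296, 25.4 and 254 CPM in ET, against 34.2, 28.1 and 65.4 CPM in CONT, with Alb highest in ET replicate 3. The sum was highest in ET replicate 1 of the ET libraries and in CONT replicate 3 of the CONT libraries. Gsta3 was highest in ET replicate 3 and CONT replicate 3. Alb was at 46.7 CPM in ET replicate 3 and at 0.118 CPM in CONT replicate 3, below CONT replicate 2 at 1.5 CPM. Apoa1 was at 0.613, 0.147 and 6.53 CPM in ET, against 0.082, 0.15 and 0.0296 CPM in CONT. Cyp2e1 was at 36.5, 0.78 and 5.94 CPM in ET, against 3.61, 0.957 and 14.6 CPM in CONT. Single hepatocyte markers thus differed in their order of libraries. The part of other tissue in the values of Gsta3 was not tested. Gsta3 (ENSMUSG00000025934) lies on chromosome 1 at 21240589 to 21265661, plus strand, and shares no stretch of 75 bases with another gene.

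**Figure D2:**
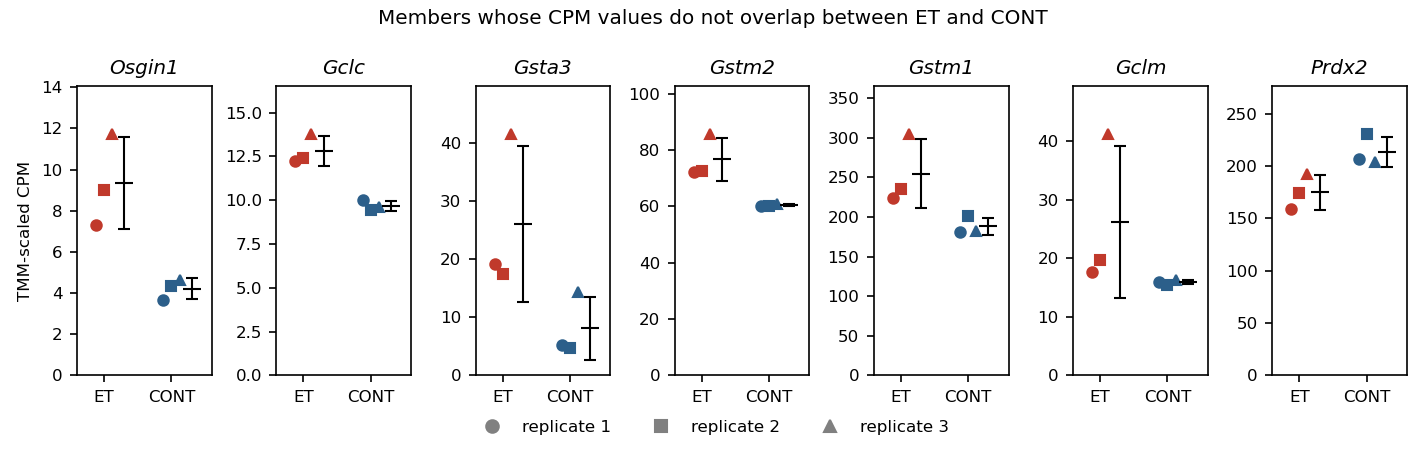
TMM-scaled CPM of the 7 members whose values did not overlap between the groups, by library, with the mean and SD of each group (n = 3) beside the points. The y axes start at 0 and differ between panels. The points of Gclc lie close together within each group, and ET replicate 3 is the highest ET library in all 7 panels, far above the others for Gsta3 and Gclm, at 41.6 and 41.2 CPM.

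The other transferases did not separate the groups. Gsta4, which conjugates aldehydes of lipid peroxidation, was at 40.8 to 52.4 CPM in ET and 41.9 to 51.5 CPM in CONT. It had means 48.3 ± 6.53 CPM in ET and 47.8 ± 5.17 CPM in CONT, with a log2 fold change of 0.02 ± 0.16 (adjusted p = 0.981). Gstp1, of the pi class, was at 93.5, 76.6 and 91.5 CPM in ET, against 106, 108 and 87.3 CPM in CONT (log2 fold change -0.20 ± 0.16, adjusted p = 0.691). Of its 75-base stretches 29.2% also occur in Gstp2, so its value is uncertain. Gsta1 was at 0.800 to 2.05 CPM in ET and 1.18 to 2.13 CPM in CONT (means 1.52 ± 0.646 CPM in ET and 1.53 ± 0.522 CPM in CONT, log2 fold change -0.01 ± 0.43, adjusted p = 0.996), and 84.7% of its stretches occur in another gene, so that its value is uncertain.

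Of the glutathione peroxidases, Gpx3 and Gpx1 had wide differences between libraries of the same group. Gpx3, the secreted form, was at 1138, 209 and 243 CPM in ET replicates 1 to 3, against 155, 141 and 408 CPM in CONT replicates 1 to 3. ET replicate 1 and CONT replicate 3, the libraries with the most atrial marker RNA in their groups, also had the most Gpx3, and the part of atrial tissue in its values was not tested. The log2 fold change of 1.18 ± 0.75 (adjusted p = 0.640) was -0.04 without ET replicate 1, and the log2 ratio was 2.95 in set 1 and -0.85 in set 2. Gpx1, the cytosolic and mitochondrial form, was at 98.4, 42.6 and 70.4 CPM in ET, against 47.8, 54.7 and 43.7 CPM in CONT. ET replicate 2 was the lowest of the 6 libraries and ET replicates 1 and 3 were the highest, with a log2 fold change of 0.53 ± 0.29 (adjusted p = 0.607) that was 0.23 without ET replicate 1 and 0.79 without ET replicate 2. Gpx4, which reduces lipid hydroperoxides in membranes and guards against ferroptosis, was at 354, 362 and 407 CPM in ET, against 478, 493 and 353 CPM in CONT. CONT replicate 3 was the lowest library, so the groups overlapped (log2 fold change -0.24 ± 0.20, adjusted p = 0.705). Of the stretches of Gpx4, 29.8% also occur in the pseudogene Gpx4-ps2, which was listed at 69.0 to 83.2 TPM in ET and 68.3 to 90.4 TPM in CONT, so part of the value of Gpx4 is uncertain.

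The superoxide dismutases are divided by compartment, and their values followed single libraries more than the groups. Sod1, the cytosolic copper and zinc enzyme, was at 217, 250.2 and 299.7 CPM in ET replicates 1 to 3, against 294, 318 and 236 CPM in CONT replicates 1 to 3 (log2 fold change -0.15 ± 0.20, adjusted p = 0.821). Sod2, the manganese enzyme of the mitochondrial matrix, was at 255, 408 and 426 CPM in ET, against 407, 479 and 445 CPM in CONT. ET replicate 1 was the low library, and the log2 fold change of -0.29 ± 0.24 (adjusted p = 0.701) was -0.07 without it. Of the 75-base stretches of Sod2, 16.2% also occur in another gene, so part of its value is uncertain. Sod3, the extracellular enzyme, was at 85.0, 31.04 and 23.6 CPM in ET, against 39.7, 34.5 and 35.1 CPM in CONT. Here ET replicate 1 was the high library and the other ET libraries were below every CONT library, so that the log2 fold change of 0.35 ± 0.45 (adjusted p = 0.805) was -0.40 without ET replicate 1.

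In the thioredoxin system, whose reductases pass electrons from NADPH to thioredoxin, the groups overlapped for all 4 members. Txnrd1, the cytosolic reductase, was at 23.7, 35.3 and 40.9 CPM in ET replicates 1 to 3, against 24.5, 25.8 and 30.2 CPM in CONT replicates 1 to 3. ET replicates 2 and 3 were above every CONT library and ET replicate 1 below them (log2 fold change 0.31 ± 0.21, adjusted p = 0.655). With ET replicate 1 and CONT replicate 3 left out together, which also makes group and library set coincide, the log2 fold change of Txnrd1 was 0.62 with an adjusted p of 0.0478 (0.0478 to 0.999 over all alternatives). That fit called 5.27% of 15714 genes, 3.37% higher and 1.90% lower, and of the members Osgin1 and Txnrd1. Txnrd2, the mitochondrial reductase, was at 14.9, 22.3 and 26.6 CPM in ET, against 25.5, 25.2 and 24.3 CPM in CONT, with a log2 fold change of -0.24 ± 0.21 (adjusted p = 0.721). The CONT libraries were close together and ET replicate 1 was the low one. Txn1, the cytosolic thioredoxin, was at 35.7 to 41.8 CPM in ET and 37.6 to 47.4 CPM in CONT (means 38.6 ± 3.08 CPM in ET and 42.5 ± 4.87 CPM in CONT, log2 fold change -0.14 ± 0.14, adjusted p = 0.757). Txn2, its mitochondrial counterpart, was at 97.2 to 131 CPM in ET and 129.7 to 148 CPM in CONT (means 118 ± 18.2 CPM in ET and 139.9 ± 9.29 CPM in CONT, log2 fold change -0.24 ± 0.17, adjusted p = 0.660).

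The peroxiredoxins, which reduce hydrogen peroxide, had negative log2 fold changes in 5 of 6 members. On log2(TPM + 1), where the median of all genes was 0.15, those of Prdx1, Prdx3 and Prdx6 were positive. Prdx2, a cytosolic form abundant in red cells, was at 159, 174 and 192 CPM in ET replicates 1 to 3, against 206, 230.3 and 204 CPM in CONT replicates 1 to 3. The groups were apart, with means of 175 ± 16.8 CPM in ET and 213 ± 14.7 CPM in CONT and a log2 fold change of -0.29 ± 0.16 (adjusted p = 0.610). The summed level of erythroid markers, of which 6 of 9 had counts in every library, was 163, 479 and 460 CPM in ET, against 71.2, 412 and 235 CPM in CONT, and its part in Prdx2 was not tested. Prdx2 (ENSMUSG00000005161) lies on chromosome 8 at 84969587 to 84974834, plus strand, and 11.5% of its exon bases overlap genes on the opposite strand, Junb among them. Prdx5, found in mitochondria, peroxisomes and cytosol, was at 194, 232 and 242 CPM in ET, against 299, 331 and 236 CPM in CONT. CONT replicate 3 lay below ET replicate 3, and the log2 fold change was -0.38 ± 0.20 (adjusted p = 0.589), with a log2 ratio of -0.70 in set 1 and 0.01 in set 2. Of its exon bases 19.1% overlap Trmt112 on the opposite strand.

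The remaining peroxiredoxins had log2 fold changes of at most 0.11 in size. Prdx3, the mitochondrial form, was at 68.1, 115 and 139 CPM in ET, against 99.99, 120.2 and 123 CPM in CONT, so that the lowest and the highest library were both ET. Prdx6, which also reduces phospholipid peroxides, was at 77.5, 117 and 145 CPM in ET, against 108, 122 and 119.5 CPM in CONT. Its lowest and highest libraries were the same as for Prdx3. Prdx1, a cytosolic form, was at 130.0 to 181 CPM in ET and 154 to 169.6 CPM in CONT, with means 149.9 ± 27.0 CPM in ET and 162 ± 7.98 CPM in CONT. Prdx4, of the endoplasmic reticulum, was at 7.94 to 15.2 CPM in ET and 9.32 to 11.6 CPM in CONT, with means 10.7 ± 3.90 CPM in ET and 10.4 ± 1.13 CPM in CONT and its highest value in ET replicate 1. The log2 fold changes of Prdx1, Prdx3 and Prdx6 were -0.11 ± 0.18, -0.09 ± 0.27 and -0.04 ± 0.24, and that of Prdx4 was 0.05 ± 0.26. These 4 had adjusted p from 0.845 to 0.964.

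**Figure D3:**
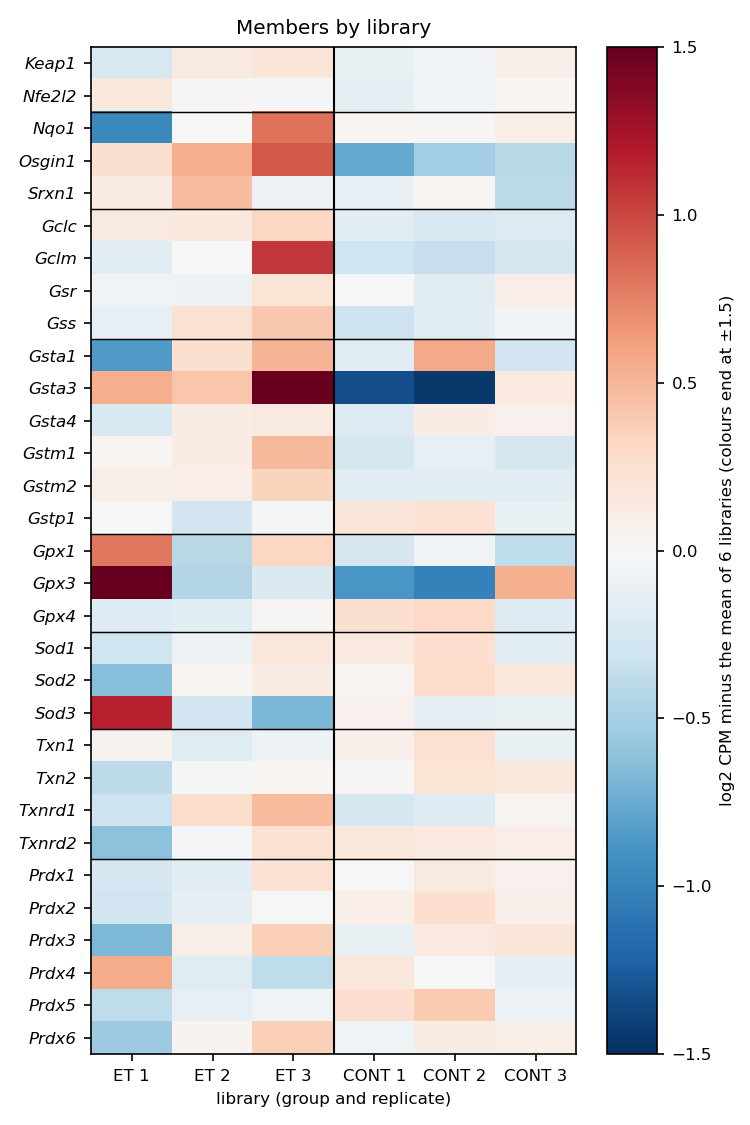
Log2 CPM of the 31 tested members in each library, as the difference from the gene's mean over the 6 libraries, with ET on the left and CONT on the right and lines between roles. The colour scale ends at -1.5 and 1.5, which Gsta3 and Gpx3 pass. ET replicate 1 is the lowest of the 6 libraries in 14 members and ET replicate 3 the highest in 16.

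The spread within the ET group ran through most members. ET replicate 3 was the highest library for 16 of the 31 members, where it was the highest for 23.9% of all genes, and ET replicate 1 was the lowest for 14 members, where it was the lowest for 24.3%. The 14 include the mitochondrial Sod2, Txn2, Txnrd2 and Prdx3, and also Prdx1, Prdx2, Prdx5, Prdx6, Sod1 and Nqo1. The same library was the highest for 5 members, Nfe2l2, Gpx1, Gpx3, Prdx4 and Sod3, where it was the highest for 25.5% of all genes. The median difference of the members from their means over the 6 libraries (log2 CPM) was -0.16, 0.01 and 0.20 in ET replicates 1 to 3, against -0.11, 0.01 and -0.04 in CONT replicates 1 to 3. Cardiomyocyte markers summed to 38200, 64400 and 58100 CPM in ET, against 63900, 71000 and 69000 CPM in CONT. ET replicate 1 was also the lowest library in these. In 4 of the 10 cardiomyocyte markers every ET library lay below every CONT library (background 8.36%), and in 0 above (background 6.89%). ET replicate 1 was the highest library in atrial, fibroblast, macrophage, mesothelial and hepatocyte markers. Smooth muscle and pericyte markers summed to 2240, 2750 and 2780 CPM in ET, against 2130, 2220 and 2160 CPM in CONT. These sums did not overlap between the groups. Every ET library lay above every CONT library in 0 of those 8 markers and in 2 of 9 fibroblast markers (background 6.89%). Endothelial markers summed to 1670, 1610 and 1120 CPM in ET, against 2250, 2160 and 1260 CPM in CONT. The 8 markers listed for skeletal muscle include Acta1 and Myh7, which heart muscle also expresses, so their sum is not particular to skeletal muscle. Of these 8, 6 had counts in every library while Myh1 and Myh4 were at 0 in at least 1. Their sum was 753, 964 and 3300 CPM in ET, against 773, 456 and 588 CPM in CONT. Neutrophil markers, of which 5 of 8 had counts in every library while Camp, Ltf and Ngp were at 0 in at least 1, summed to 7.72, 3.22 and 46.5 CPM in ET, against 1.75, 4.19 and 7.71 CPM in CONT. ET replicate 3 was the highest library in both. The part of these markers in the members' values was not tested.

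Per unit of length, the members covered a wide range of levels. Gpx4 and Sod1 had the highest mean TPM. Gpx4 was at 592, 506 and 513 TPM in ET replicates 1 to 3, against 601, 591 and 490.4 TPM in CONT replicates 1 to 3, and Sod1 at 449, 458 and 496 TPM in ET, against 463, 479 and 421 TPM in CONT. The groups overlapped in both genes. Next in mean TPM over the 6 libraries came Prdx5, Sod2, Gpx3, Prdx2 and Gstm1. The place of Gpx3 rests on ET replicate 1, since it was at 908, 147.5 and 154 TPM in ET, against 93.6, 81.6 and 280.0 TPM in CONT. At the low end of the tested members stood Gsr, Osgin1, Gclc and Gsta1, where Gclc was at 3.95 to 4.59 TPM in ET and 2.48 to 2.99 TPM in CONT. Prdx5 (329 ± 16.5 TPM in ET and 363 ± 16.1 TPM in CONT) and Sod2 (331 ± 58.8 TPM in ET and 353 ± 26.3 TPM in CONT), neighbours in the order, did not differ beyond their spread. Gstm1 stood at 229.9 ± 15.4 TPM in ET and 154 ± 6.27 TPM in CONT, above Gstm2 at 84.1 ± 4.93 TPM in ET and 58.3 ± 5.48 TPM in CONT. Slc7a11 was listed at no more than 0.02 TPM in any library.

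**Figure D4:**
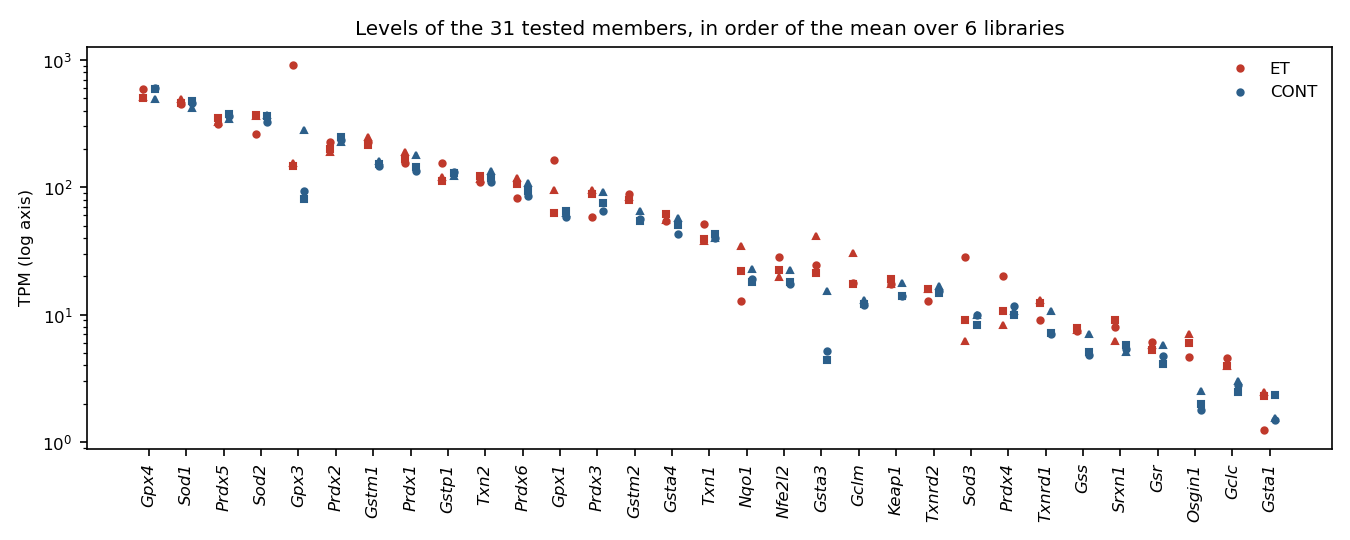
TPM of the 31 tested members in each library on a log axis, ordered by the mean over the 6 libraries, with ET left of CONT for each gene and the marker shape giving the replicate (circle 1, square 2, triangle 3). Gpx4 and Sod1 stand at the left, and Gpx3, with 81.6 to 908 TPM, has a wide spread.

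Beyond the members, 96 further genes of the pathway were read from the same test, of which 91 were tested. In edgeR 0 passed (background 0%), 7 were higher and 1 lower in ET at an unadjusted p under 0.05 (background 4.19% and 4.46%), DESeq2 called 4 (background 1.18%) and limma-voom 0. In 12 of the 91 every ET library lay above every CONT library (background 6.89%) and in 4 every ET library lay below (background 8.36%). The median log2 fold change was 0.17 over 13 regulators of NRF2, 0.19 over 23 other NRF2 targets, 0.05 over 28 further enzymes of glutathione, 0.05 over 16 thioredoxin and methionine sulfoxide genes and -0.10 over 11 genes of selenoprotein supply. The last group holds genes that provide the selenocysteine that glutathione peroxidases and thioredoxin reductases need. It also holds Selenow, Selenok, Selenot and Selenom, which are themselves selenoproteins.

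Of these genes, 6 with the lowest p and Cat are described. Maff, a small MAF protein that can pair with NRF2, was at 14.8, 10.8 and 15.0 CPM in ET replicates 1 to 3, against 7.36, 6.44 and 6.98 CPM in CONT replicates 1 to 3 (log2 fold change 0.97 ± 0.17, adjusted p = 0.427). Mgst1, a microsomal glutathione transferase, was at 54.5, 56.9 and 73.5 CPM in ET, against 25.3, 33.7 and 35.5 CPM in CONT (log2 fold change 0.97 ± 0.19, adjusted p = 0.427). In both genes every ET library was above every CONT library. Hmox1, the inducible heme oxygenase, was at 23.7, 11.2 and 26.7 CPM in ET, against 7.55, 7.79 and 7.87 CPM in CONT (log2 fold change 1.41 ± 0.31, adjusted p = 0.452). Txnip, which binds and inhibits thioredoxin, was at 558, 822 and 942 CPM in ET, against 339, 331 and 408 CPM in CONT (log2 fold change 1.11 ± 0.25, adjusted p = 0.469). These 4 are the pathway genes that DESeq2 called, and 19.4% of the exon bases of Txnip overlap a gene on the opposite strand.

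Chac1, an enzyme that breaks glutathione down, was at 3.79, 7.03 and 8.56 CPM in ET replicates 1 to 3, against 2.24, 1.31 and 3.96 CPM in CONT replicates 1 to 3 (log2 fold change 1.36 ± 0.46, adjusted p = 0.515). ET replicate 1 lay below CONT replicate 3. Sesn3, of the stress-induced sestrins, was at 16.4, 14.7 and 11.1 CPM in ET, against 9.06, 7.60 and 11.1 CPM in CONT (log2 fold change 0.60 ± 0.20, adjusted p = 0.515), where ET replicate 3 and CONT replicate 3 were nearly equal. Cat, the catalase, was at 103, 197 and 382 CPM in ET, against 143, 165 and 182 CPM in CONT. It had the same order of ET libraries as Nqo1, with all CONT libraries between ET replicates 1 and 2, and a log2 fold change of 0.48 ± 0.44 (adjusted p = 0.724) that was -0.12 to 0.84 when each library was left out in turn.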

How the data were processed

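Libraries were made from 1000 ng of total RNA with the NuGEN Universal mRNA Plus kit and about 15 M read pairs of 75 bases each were planned, per the labels' protocols. STAR 2.7.0f, RSEM 1.2.31 and the mm10 build were used, per the submitters' processing notes, with an annotation release and strand setting not given in the sources used here. Where genes overlap on opposite strands, whether their reads were told apart is therefore not known. Replicate numbers follow the order of deposit within each group and pair no samples. The authors deposited expected counts, estimated counts per gene that are not normalized and need not be whole, and, per the file headers, TPM and FPKM values per library. FPKM served only to derive effective gene lengths (expected counts over FPKM, scaled by the library total). Average linkage on the lengths of 8088 well-covered genes, cut at 2 clusters by setting, gave the library sets.

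Expected counts were rounded and filtered with filterByExpr (minimum count 10, minimum total 15). TMM factors were 1.19, 1.013 and 0.920 in ET replicates 1 to 3 and 0.969, 0.927 and 1.004 in CONT replicates 1 to 3, and they scaled the CPM values. For ET against CONT, edgeR's quasi-likelihood test (robust, two-sided) was used with Benjamini-Hochberg adjustment over all 15727 genes and a threshold of 0.05. An SE is the absolute log2 fold change over the square root of F. The tests were tried on simulated data. The versions were DESeq2 1.42.0, limma 3.58.1 and edgeR 4.0.16 in R 4.3.3, with scipy 1.17.1, pandas 2.3.3 and matplotlib 3.10.9 in Python 3.11.15. Of 55487 gene IDs, 55394 matched GENCODE vM21 (GRCm38), which gave coordinates, exon overlaps and the stretches of 75 bases shared between transcripts. Upstream sequences are from RefSeq.

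The members and lists were chosen with earlier results of these data known. The rule for named genes gives values in every library for Nfe2l2 and Keap1, for members with an unadjusted p under 0.05 or groups that do not overlap and for the 2 with the highest mean TPM, and names 6 other pathway genes of the lowest p with Hmox1, Cat and Txnip; library values of further members were given for context. Alternatives were other scaling factors, filters, tools and units, removal of mitochondrially encoded genes, a term for the library set and leaving out libraries.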

Additional observations from a re-analysis of the deposited data

How the results depend on the processing

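No paired analysis was possible because the labels give no replicate numbers, and the numbers used here follow the order of deposit. In edgeR, 0 genes and 0 members passed under other scaling factors, other filters, without mitochondrially encoded genes, with the library set term or without each library in turn. DESeq2 called 185 genes, 1 member (Osgin1, log2 fold change 1.17) and 4 other pathway genes. With CONT replicate 3 and ET replicate 1 both left out, edgeR called 828 genes (5.27%), 2 members (Osgin1 at 1.40 and Txnrd1 at 0.62) and 6 other pathway genes. Limma-trend called 1 gene on log2(TPM + 1) and 2 on log2(TPM + 0.1), no member among them, and the members' median was 0.19 and 0.20, where the median of all genes was 0.15 and 0.18. By library totals only, the median of all genes was 0.12.

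The same 6 members were higher in every ET library by library totals and in TPM; these settings of the count, and those below, were added after seeing the data. Leaving out a library can only add members to the count. Members higher in every ET library left numbered 6 to 10 without each library (8.69% to 17.9% of all genes), 10 without ET replicate 1 (17.9%), 9 without CONT replicate 3 (15.4%) and 12 with both of these left out (28.7%). The members lower in every ET library numbered 1 to 6 without each library: 3 without ET replicate 1 (18.8% of all genes) or CONT replicate 1 (10.2%), 6 without ET replicate 3 (14.4%) and 5 without CONT replicate 3 (19.0%). They were 7 with ET replicate 1 and CONT replicate 3 both left out (31.7%), 2 by library totals (4.72%) and 0 in TPM (3.27%).

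Of the 31 tested members, 18 kept the sign of their log2 fold change under all 18 alternatives, and the signs of 13, none of which passed, turned in at least 1. By leaving out each library the ranges were -0.0429 to 1.85 for Gpx3, -0.29 to 0.31 for Gsta1, -0.32 to 0.17 for Prdx3, -0.27 to 0.22 for Prdx4, -0.26 to 0.18 for Prdx6, -0.40 to 0.67 for Sod3, -0.0671 to 0.14 for Gsta4, -0.0508 to 0.12 for Gsr, -0.0163 to 0.20 for Keap1 and -0.45 to 0.44 for Nqo1. Gsta1 was at 0.0023 with RLE factors, 0.0537 by library totals, 0.0101 with no filter, 0.0025 in DESeq2, 0.0903 on log2(TPM + 1), 0.12 on log2(TPM + 0.1) and 0.16 with both libraries left out. Upper-quartile factors gave -0.002 for Gsr and -0.0323 for Gsta4, library totals 0.0276 for Prdx6 and limma-voom -0.083 for Nqo1. On log2(TPM + 1) the values were 0.16 for Prdx1, 0.0412 for Prdx3, 0.0832 for Prdx6, 0.0421 for Sod1 and 0.0537 for Txn1, and on log2(TPM + 0.1) 0.16, 0.0415, 0.0839, 0.0422 and 0.0546 for the same genes. With both libraries left out Prdx1 was at 0.0044, Prdx3 at 0.23, Prdx4 at -0.34, Prdx6 at 0.21 and Sod3 at -0.42. With the library set term Gsr was at -0.0042, Gsta4 at -0.0679, Keap1 at -0.0393 and Nqo1 at -0.30. Beyond fewer samples where libraries were left out, the cause was not tested. With 3 libraries per group, small changes of members were not detectable.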
